A study of Mus musculus with 12 samples.

Results

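The resistin-like family of the mouse is a group of 4 small secreted, cysteine-rich proteins encoded by Retnla, Retnlb, Retnlg and Retn. All probe sets of the array whose annotation gave 1 symbol equal to one of these names were taken, which gave 3 probe sets for 3 of the 4 genes, out of 34958 probe sets with 1 symbol (18194 genes) and 45101 probe sets in all. Retnla was read by 1449015_at, Retnlb by 1418368_at and Retn by 1449182_at. Retnlg had 0 probe sets with a single symbol and was therefore not measured here.

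Retnla encodes RELMα, also called FIZZ1, which macrophages and airway epithelium of the mouse secrete in type 2 inflammation, and its RNA is a standard marker of macrophages activated by IL-4 and IL-13 through the transcription factor STAT6. Retnlb encodes RELMβ, a product of goblet cells best known from the gut, Retnlg encodes RELMγ, known from bone marrow and granulocytes, and Retn encodes resistin, a hormone that fat cells make in the mouse. In models of allergic airway disease, the family is known above all for the rise of RELMα in the lung.

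Whole lungs of A/J mice, an inbred strain, were profiled on 12 Affymetrix whole-genome mouse arrays in 4 groups of 3, at an age of 8 to 10 weeks, and the methods state 3 animals per group and a harvest on day 4 after the particle exposure. The study asked how ambient particulate matter from Baltimore (PM) acts on naive lungs and on lungs with ovalbumin-induced allergic inflammation. PBS/PBS mice received phosphate-buffered saline only. OVA/PBS mice were sensitized with 0.4 mg/kg ovalbumin into the peritoneum on day 0 and challenged with 30 mg/kg into the trachea on day 14, PBS/PM mice received 50 µl of particles at 10 mg/ml, and OVA/PM mice received both.

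Values are GCRMA intensities on the log2 scale, so that 1 unit is a doubling, and the array medians lay between 4.84 and 5.03. Intensities of different probe sets are not comparable as amounts of RNA. The number of arrays, 3 per group, limits the precision, and an exact permutation test of 3 arrays against 3 cannot give a p below 0.1. In whole tissue, fewer cells of a type and less RNA per cell cannot be told apart. Markers of lung structural cells were high in every array, with means over 13 genes from 13.50 to 13.65. Spike-in controls of hybridization stood apart in OVA/PM replicate 3, where BioB-5 was 5.50 against at most 3.77 on the other 11 arrays, so values without that array are given beside the results of the members for the combined exposure, and for the other genes where a call or a count changed.

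The names OVA and PM carry a doubt. For genes moved by both exposures, the fold changes that the study printed correspond to these arrays only if the labels OVA and PM of the single-exposure groups are swapped. Other measurements of the study were not weighed on this point, and the labels were kept. Every direction given for OVA/PBS or PBS/PM rests on the label of the arrays, and the values of one become those of the other if the names are exchanged. PBS/PBS, OVA/PM and the interaction of the exposures do not depend on it.

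Retnlb, Retnla and Retnlg lie side by side on chromosome 16, within 57643 bases and with 0 other genes of the annotation between them, and Retn lies on chromosome 8 (GRCm38.p6). Retnlb occupies chr16:48816856-48818892, Retnla chr16:48842609-48844461, Retnlg chr16:48872608-48874498 and Retn chr8:3655770-3659818. The 250 bases before the annotated start of Retnla are shown because its level changed most of the 3 members measured. They are RefSeq's sequence of the reference strain C57BL/6J, on the plus strand, which is the strand of the gene, and the A/J sequence may differ. Capitals mark, from left to right, a STAT6-type match, a C/EBP-type match and a TATA box.
Retnla, chr16:48842359-48842608: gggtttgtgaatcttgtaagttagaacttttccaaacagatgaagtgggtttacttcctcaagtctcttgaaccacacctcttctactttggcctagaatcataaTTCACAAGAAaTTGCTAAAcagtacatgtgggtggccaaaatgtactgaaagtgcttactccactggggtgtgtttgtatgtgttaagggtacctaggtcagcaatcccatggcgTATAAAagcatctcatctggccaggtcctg

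The matches began 145, 134 and 30 bases before the start of Retnla. The letters searched on both strands, from 250 bases before to 50 after the start, were TTCNNNNGAA for STAT6, TTGCNNAA for C/EBP and TATAAA for the TATA box, where N is any base. Of 32851 mouse promoters of 300 bases, 6.95% held the STAT6-type letters, 10.8% the C/EBP-type letters and 13.6% the TATA box, and none of these matches overlapped another in Retnla. The Retnlg promoter held a STAT6-type match 72 bases and a C/EBP-type match 246 bases before its start, and the Retn window held no match to any of the 3. Over 228 aligned columns the promoters of Retnla and Retnlg were identical at 178 (78.1%). Their STAT6-type matches, in capitals, sit in nearly the same surroundings, as these 30-base windows show.
Retnla, chr16:48842456-48842485: aatcataaTTCACAAGAAattgctaaacag
Retnlg, chr16:48872528-48872557: tgtcataaTTCACAGGAAattgctataata

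Retnla was raised more than 10-fold in every exposed group. In the PBS/PBS lungs its log2 level was 10.22, 10.44 and 10.26. It was 14.34, 13.67 and 14.08 in the OVA/PBS lungs, 14.26, 14.21 and 14.48 in the PBS/PM lungs and 14.69, 14.70 and 14.75 in the OVA/PM lungs. All 9 exposed lungs lay far above the 3 controls, the 2 single-exposure groups overlapped, and the OVA/PM lungs were the highest of all.

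On the linear scale the group mean rose from 1267 ± 104 (SD, n = 3) in PBS/PBS to 17006 ± 3867 in OVA/PBS, 20487 ± 2068 in PBS/PM and 26906 ± 640.2 in OVA/PM. In the control lungs between 4846 and 5509 probe sets of the array were brighter than Retnla. In the OVA/PM lungs only 91 to 96 of 45101 were brighter, which places Retnla at the 99.8th percentile of each array. The highest value of any probe set on any array was 16.26.

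**Figure D1:**
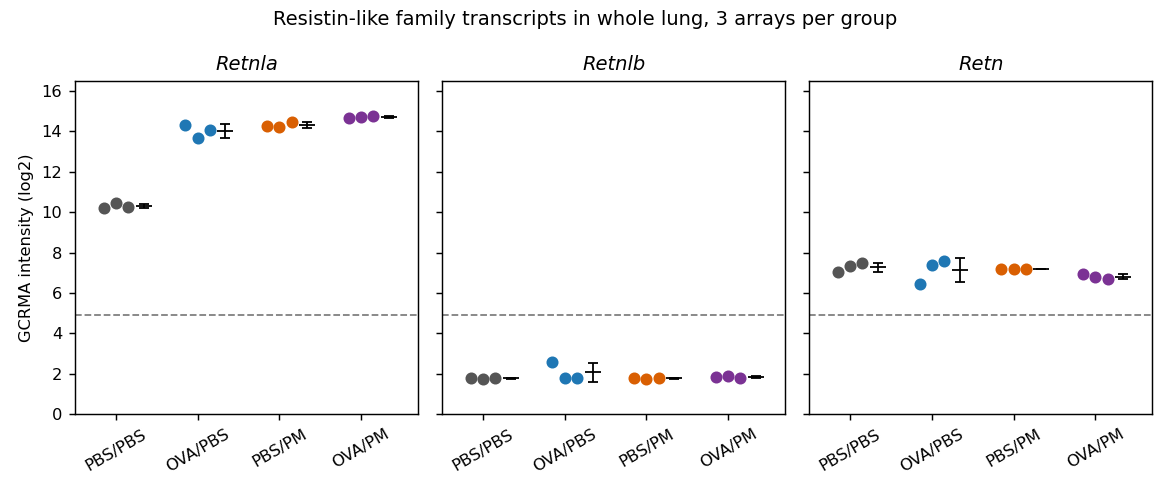
GCRMA intensity (log2, vertical axis) of Retnla, Retnlb and Retn in the 4 groups, 1 point per array, with the mean and SD (n = 3) as a bar beside the points and a dashed line at the filter level of 4.93. Retnla rises from 10.22 to 10.44 in PBS/PBS to at least 13.67 in every exposed lung, Retnlb stays below the line on all 12 arrays, and Retn lies between 6.45 and 7.56.

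PM alone raised Retnla 16.2 ± 2.10-fold (SD) over PBS/PBS. The limma estimate was 4.01 ± 0.11 (SE) on the log2 scale with an adjusted p of 0.000163. Retnla was the 10th largest rise and stood 2nd by p among 22246 probe sets. In this comparison 0.0719% of all probe sets passed an adjusted p of 0.05, and 1 of the 2 family members tested did. The groups did not overlap, which held for 14.0% of probe sets. Leaving out 1 array at a time kept the estimate between 3.93 and 4.08.

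OVA alone raised Retnla 13.4 ± 3.24-fold, and the limma estimate was 3.72 ± 0.18 with an adjusted p of 0.00188. Here the background was far larger, since 19.2% of 22498 probe sets passed the same threshold and 46.5% did not overlap, and Retnla stood 63rd by the size of its rise. The spread among the OVA/PBS lungs (SD 0.34) was the widest of the 4 groups, with replicate 1 the highest and replicate 2 the lowest. The direct comparison of OVA/PBS with PBS/PM gave a difference of -0.29 (-0.45 without OVA/PBS replicate 1 and -0.11 without replicate 2). It was not called (95% interval -0.74 to 0.16, limma, adjusted p = 0.318), where 5.20% of probe sets passed and 38.6% did not overlap. That interval allows a difference in either direction.

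The combined exposure raised Retnla 21.2 ± 1.81-fold over PBS/PBS. The limma estimate was 4.41 ± 0.09, with an adjusted p of 7.42e-06 among 22538 probe sets, of which 21.7% passed and 44.5% did not overlap. Without OVA/PM replicate 3 it was 4.39 ± 0.11. The 3 OVA/PM lungs differed among themselves by an SD of 0.03, and 5.0% of the probe sets kept had a smaller spread in that group.

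Adding PM to OVA changed Retnla little beside these rises. OVA/PM was 1.58 ± 0.362-fold the OVA/PBS level, a log2 difference of 0.69 ± 0.17 that limma did not call (adjusted p = 0.415), although all 3 OVA/PM arrays lay above all 3 OVA/PBS arrays. In that comparison 0.13% of probe sets passed and 15.4% did not overlap. Adding OVA to PM gave 1.31 ± 0.136-fold, a log2 difference of 0.40 ± 0.10 with an adjusted p of 0.0531 in limma, where 12.9% of probe sets passed and 36.5% did not overlap. This second value lay close to the threshold, and it passed under 3 other settings, given with the alternatives. Without OVA/PM replicate 3 the differences were 0.67 ± 0.21 and 0.38 ± 0.12.

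The effects of PM and OVA on Retnla were not additive. The interaction, which is the effect of PM in OVA-challenged lungs minus its effect in naive lungs, was -3.33 ± 0.21 on the log2 scale (limma over all 12 arrays, adjusted p = 0.00018). Only 6 of 22688 probe sets (0.0264%) passed, and Retnla stood 2nd by p. Without OVA/PM replicate 3 the interaction was -3.35 ± 0.24. A level with both exposures below the sum of the log2 changes was common among strongly raised probe sets. It was seen in 6 of the 7 that stood at least 3 log2 units above PBS/PBS with each single exposure, Retnla included. On the linear scale the study's synergistic index, the rise with both exposures divided by the sum of the single rises, was 0.73 ± 0.05 (SE), where a value of 1 would be additive, and 0.72 ± 0.05 without OVA/PM replicate 3. The index is built from the same arrays as the interaction. All exposed lungs lay at the 99.1st percentile of their array or higher, and whether intensity still follows the amount of RNA in step at that level was not tested.

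The other probe sets with a called interaction included 2 goblet cell genes with the same sign and 1, Spdef, with the opposite sign. Clca1, a secreted protein of mucous cells, had an interaction of -5.64 ± 0.32, and Itln1, the lectin intelectin-1, one of -4.26 ± 0.36. For both, all 3 PBS/PBS arrays lay under 4.93, so that these values are set partly by background. The remaining 3 were Spdef, the transcription factor of goblet cell differentiation, Pde4dip and a probe set without a single symbol. Pde4dip had 0.94 ± 0.12 and the probe set without a single symbol 1.38 ± 0.17. Leaving out OVA/PM replicate 3 gave 4 calls, 1 of them positive, and neither of these probe sets was among them. Spdef was under 4.93 on all 9 arrays outside OVA/PM and 5.85 ± 0.53 (SD) in OVA/PM, so its interaction has no size that can be read.

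**Figure D2:**
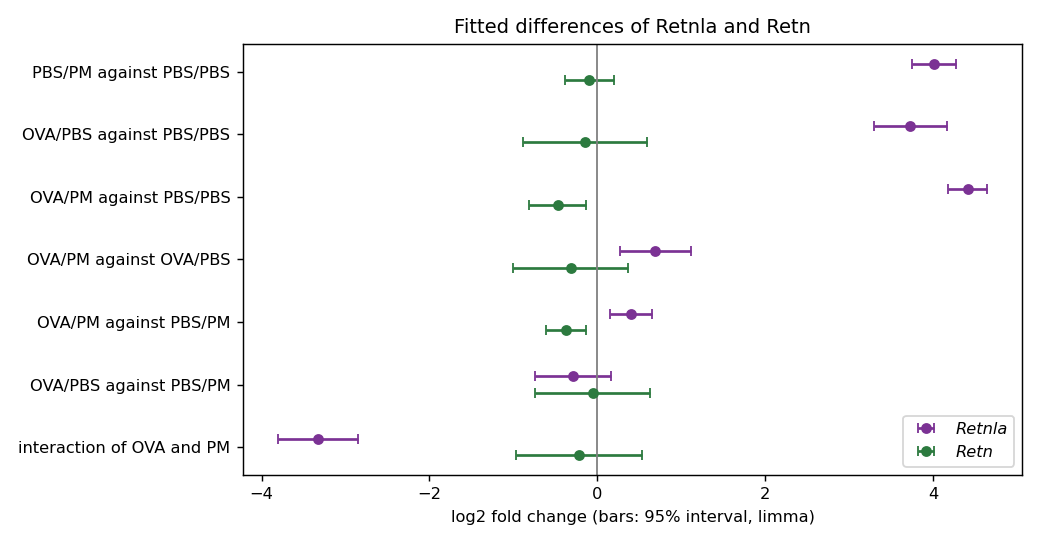
Fitted log2 differences (horizontal axis) of Retnla and Retn in the 6 comparisons of groups and in the interaction of OVA and PM, with 95% intervals from limma (3 arrays per group). The 3 comparisons of Retnla with PBS/PBS lie between 3.72 and 4.41, its interaction is -3.33, and the differences of Retn lie between -0.47 and -0.05.

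Retnlb was not detected above the filter in any lung. Its log2 level was between 1.74 and 1.87 on 11 arrays and 2.60 on OVA/PBS replicate 1, all under 4.93. The 1st, 2nd and 3rd replicates read 1.79, 1.74 and 1.77 in PBS/PBS, 2.60, 1.78 and 1.81 in OVA/PBS, 1.77, 1.76 and 1.80 in PBS/PM, and 1.83, 1.87 and 1.78 in OVA/PM. It was therefore left out of the fits with the filter, and no fold is given because all groups lay below that level. In the fit without a filter, limma called it in no comparison, and its largest difference was 0.30 ± 0.24 (SE) in OVA/PBS against PBS/PBS (adjusted p = 0.527).

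Retn, the gene for resistin, was above the filter on all 12 arrays and passed the test in no comparison. Its log2 level was 7.04, 7.32 and 7.48 in PBS/PBS, 6.45, 7.37 and 7.56 in OVA/PBS, 7.19, 7.17 and 7.19 in PBS/PM and 6.96, 6.77 and 6.70 in OVA/PM. The single-exposure groups overlapped the controls, while all 3 OVA/PM lungs lay below all PBS/PBS and PBS/PM lungs. OVA/PBS replicate 1 was the lowest of the 12.

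In limma Retn differed from PBS/PBS by -0.10 ± 0.12 (SE) with PM (adjusted p = 0.852), by -0.15 ± 0.30 with OVA (adjusted p = 0.735) and by -0.47 ± 0.14 with both (adjusted p = 0.058). The last value missed the threshold, and the groups did not overlap, which held for 23.2% of probe sets in the same direction. OVA/PM was lower than PBS/PM by -0.37 ± 0.10 (limma, adjusted p = 0.0564), again without overlap, as were 19.2% of probe sets in that direction. Against OVA/PBS the difference was -0.32 ± 0.29 (limma, adjusted p = 0.739), with overlap, and it moved to -0.66 without OVA/PBS replicate 1 and to -0.10 without replicate 3. Without OVA/PM replicate 3 the differences from PBS/PBS, PBS/PM and OVA/PBS were -0.41 ± 0.16, -0.32 ± 0.10 and -0.26 ± 0.35. The interaction was -0.22 ± 0.34 (limma, adjusted p = 0.962) and -0.17 ± 0.37 without that array.

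Over the 12 arrays the level of Retn was correlated with that of fat cell genes, though not within every group. Its Pearson correlation with the mean of 13 adipocyte markers over the 12 arrays was 0.84 (Spearman's rho 0.83). The permutation p-values were 0.00066 and 0.0018, and the adjusted values were 0.00132 and 0.0036 over 2 lists. The permutation shuffled all 12 arrays without regard to group, so its p-values here and below also reflect differences between groups. Without the 2 arrays farthest from the median of the markers, r was 0.77, and of the deviations from the group means it was 0.82. The spread of Retn was widest in OVA/PBS (SD 0.59, beside 0.01 in PBS/PM), and r without that group was not computed. In OVA/PBS and OVA/PM the 3 arrays stood in the same order for Retn and for the markers. In PBS/PM Retn was 7.17 to 7.19 while the adipocyte mean was 10.55 to 11.19. In PBS/PBS the highest Retn, 7.48, went with an adipocyte mean of 10.42, and the highest adipocyte mean, 11.08, with a Retn of 7.32. With the mean of 14 striated muscle markers r was 0.67 and rho 0.73 (permutation p = 0.024 and 0.00966, unchanged by the adjustment), r was 0.81 without the 2 farthest arrays and 0.49 for the deviations. OVA/PBS replicate 1, the array with the lowest Retn, also had the lowest adipocyte mean, 9.74.

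Adipocyte means were 10.36 to 11.08 in PBS/PBS, 9.74 to 11.27 in OVA/PBS, 10.55 to 11.19 in PBS/PM and 9.77 to 9.91 in OVA/PM. Of 12 adipocyte genes tested, 6 fell and 0 rose in OVA/PM against PBS/PBS, with a median of -0.71 beside -0.03 over all probe sets tested, and 8 fell against PBS/PM. These shares stood beside 21.7% and 12.9% of all probe sets called. Without OVA/PM replicate 3 the counts were 3 and 5, beside 15.4% and 6.99%. With either single exposure, 0 of 12 passed, beside 0.0719% of all probe sets called with PM and 19.2% with OVA. Striated muscle means were 11.31 to 11.61 in PBS/PBS, 10.46 to 12.07 in OVA/PBS, 11.04 to 11.74 in PBS/PM and 9.17 to 10.62 in OVA/PM. In OVA/PM 5 of 14 muscle genes fell against PBS/PBS and 1 of 14 against PBS/PM, beside the same 21.7% and 12.9%. Without OVA/PM replicate 3 both counts were 0. The part of fat and muscle tissue in the level of Retn was not tested further.

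**Figure D3:**
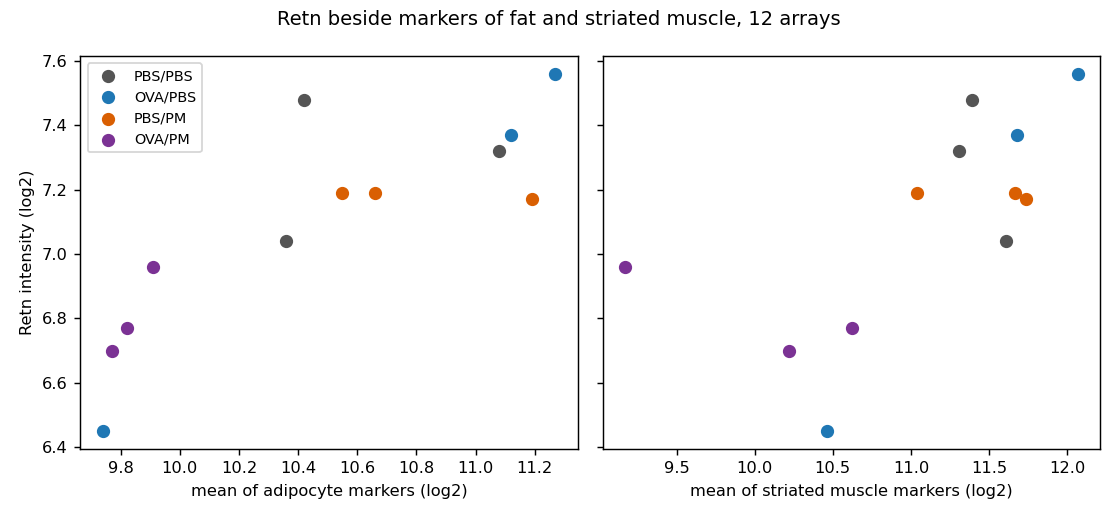
Log2 intensity of Retn (vertical axis) against the mean log2 intensity of 13 adipocyte markers (left) and 14 striated muscle markers (right), 1 point per array and 1 colour per group. The 3 OVA/PM lungs and OVA/PBS replicate 1 are low on both axes in the left panel, where r is 0.84.

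The genes whose probe sets were most like each member over the 12 arrays were found by Pearson's r among 19672 probe sets. They are named as single genes, with no test of what they share. For Retnla, Bpifb1, a secreted airway epithelial protein, led with r = 0.970 and 0.968 for its 2 probe sets, followed by Itln1 (0.965), the trefoil peptide gene Tff2 (0.962), the monocyte chemoattractant Ccl8 (0.958), the mucin gene Muc5b (0.935), Aftph (0.933) and Chad (0.932). These r values rest largely on the gap between the PBS/PBS lungs and the rest. Among deviations from the group means the leading genes were others, Ift22 (r = 0.973) and the B cell chemoattractant Cxcl13 (0.967), both of which were highest in OVA/PBS replicate 1 and lowest in replicate 2 within that group.

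Tff2 rose with each exposure, by 4.33 ± 0.28 with PM, 3.64 ± 0.23 with OVA and 5.92 ± 0.22 with both on the log2 scale (limma, adjusted p = 0.0188, 0.00373 and 7.86e-05). Ccl8 rose by 4.60 ± 0.42 with OVA and 6.21 ± 0.15 with both (limma, adjusted p = 0.00691 and 1.21e-05), while its difference with PM, 4.37 ± 0.58, was not called (adjusted p = 0.114). Bpifb1 rose by 1.48 ± 0.14, 1.66 ± 0.20 and 2.02 ± 0.14 for its 1st probe set (limma, adjusted p = 0.0404, 0.0105 and 0.00061), and its 2nd was not called with PM (adjusted p = 0.0917).

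**Figure D4:**
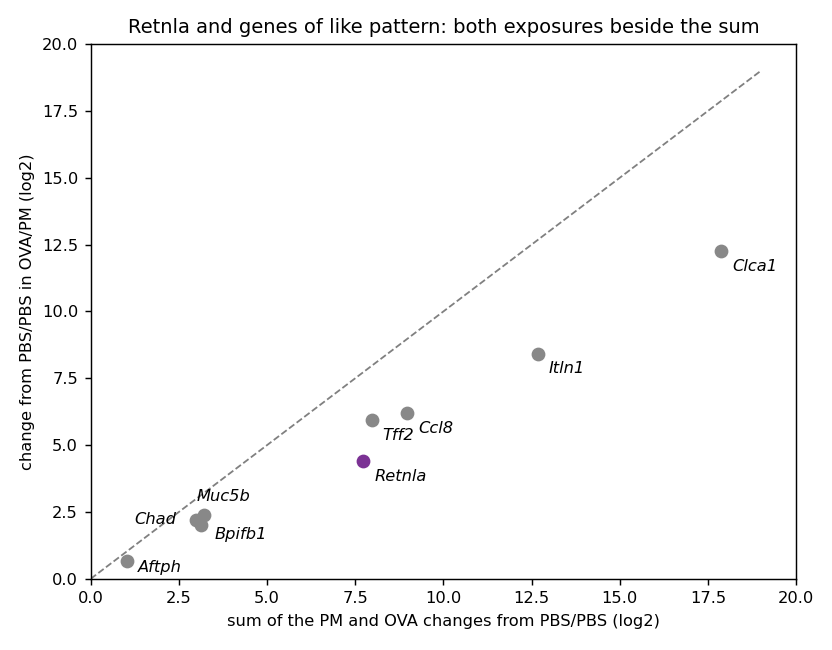
Log2 change from PBS/PBS in OVA/PM (vertical axis) against the sum of the log2 changes with PM alone and OVA alone (horizontal axis) for Retnla, Clca1 and the genes most like Retnla in level. The dashed line marks additive log2 effects. All points lie below it, Retnla at 4.41 on the vertical axis and Clca1 at 12.24, a called interaction was found for Retnla, Clca1 and Itln1 only, and Clca1 and Itln1 were under the filter in PBS/PBS.

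For Retn the most similar probe sets were those of Pdk4 (r = 0.881), a kinase of fuel selection, the fat cell hormone Adipoq (0.880), Ephx2 (0.865), the lipid droplet gene Cidec (0.865), Crat (0.861), the muscle gene Trdn (0.861), the fatty acid carrier Fabp4 (0.861) and the troponin gene Tnnc1 (0.856). In OVA/PM against PBS/PBS limma called Pdk4 (-1.62 ± 0.10, adjusted p = 0.000384) and Cidec (-1.51 ± 0.33, adjusted p = 0.0236, and 0.0696 without OVA/PM replicate 3), while Adipoq differed by -0.75 ± 0.32 (adjusted p = 0.146). By deviations from the group means the leading genes for Retn were others, Pink1 (r = 0.933), Cpsf3 (0.919 and 0.911 for its 2 probe sets), Fgf11 (0.918) and Fam149b (0.909). Within OVA/PBS all of these were lowest in replicate 1, as Retn was.

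Of 20 other macrophage genes of the type 2 program, 1 of 13 tested rose with PM, 5 of 13 with OVA and 8 of 16 with both exposures, against 0 that fell, and the medians were 0.23, 0.20 and 1.42. Over all probe sets 0.0719%, 19.2% and 21.7% were called. Of the genes tested, 1 with PM and 3 with both had 1 group under the filter on all its arrays and were tested through the other group. With PM the called gene was Chil4, a chitinase-like protein (limma, adjusted p = 0.0258), which was 9.96 to 12.53 in PBS/PM and under the filter, at 2.94 to 3.25, in PBS/PBS. With OVA alone Chil4 stayed under the filter on all 3 arrays, with levels from 3.17 to 3.48, on the arrays where Retnla rose. Chil3, the related protein Ym1, was 11.60 ± 0.17 (SD) in PBS/PBS, 12.12 ± 0.29 in OVA/PBS, 12.92 ± 0.80 in PBS/PM and 13.94 ± 0.18 in OVA/PM, and limma called its rise with both exposures only (2.34 ± 0.14, SE, adjusted p = 0.000376).

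The lectin gene Clec10a rose by 1.46 ± 0.25 with OVA (limma, adjusted p = 0.0197) and by 2.11 ± 0.23 with both (adjusted p = 0.00266). Arg1, the arginase of the same macrophages, was under the filter in all 9 lungs outside OVA/PM and 5.10, 5.60 and 5.14 in OVA/PM. The mannose receptor gene Mrc1 was high in every group, 11.30 to 11.75 on average, and was called in no comparison with PBS/PBS.

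The cytokines that induce Retnla in the mouse were below the filter. Il4 lay between 2.01 and 2.15 and Il13 between 2.74 and 2.98 over the 12 arrays, and 7 of the 16 type 2 cytokine, receptor and signalling genes matched were under the filter in every group. Of the 9 tested, 0 rose with PM, 1 with OVA and 2 with both, which is 11.1% and 22.2% with OVA and with both beside 19.2% and 21.7% of all probe sets called. Il33, an alarmin of barrier cells, was 10.75 ± 0.22 (SD) in PBS/PBS and 11.75 ± 0.44 in OVA/PBS, a rise that limma called (adjusted p = 0.0388), and it rose by 1.74 ± 0.15 (SE) with both (limma, adjusted p = 0.00116). Il13ra1, a subunit of the receptor for IL-4 and IL-13, rose by 0.64 ± 0.17 with both (limma, adjusted p = 0.0382), and missed the threshold without OVA/PM replicate 3 (0.56 ± 0.18, adjusted p = 0.0966).

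Transcription factors known to act on family genes had median log2 differences from PBS/PBS of -0.01, 0.11 and 0.15 with PM, OVA and both. Stat6 was 11.03 to 11.29 in all lungs but 2, which read 10.98 and 10.99, and differed from PBS/PBS by 0.04, 0.01 and 0.10 with PM, OVA and both (limma, adjusted p = 0.906, 0.916 and 0.501). Of 8 factors tested, 0 passed with PM, 1 rose and 1 fell with OVA, and 1 rose with both. Over all probe sets 0.0719%, 19.2% and 21.7% were called. With OVA, Hif1a rose by 0.54 ± 0.13 and Cebpd fell by 0.56 on the log2 scale, and with both exposures Hif1a rose by 0.67 ± 0.10.

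Of 5 candidate receptors and binding partners, 0 passed with either single exposure and 1 rose with both. The shares of all probe sets called were 0.0719% with PM, 19.2% with OVA and 21.7% with both. Btk, a kinase described as a partner of RELMα, rose by 1.60 ± 0.36 with both (limma, adjusted p = 0.0267), and was not called without OVA/PM replicate 3 (1.58 ± 0.45, adjusted p = 0.0722). Tlr4, a reported receptor of resistin, differed by 0.61 ± 0.17 with both and missed the threshold (limma, adjusted p = 0.0504).

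Markers of cell types that may make these RNAs moved with the exposures, and their counts stand beside 0.0719% of all probe sets called with PM, 19.2% with OVA and 21.7% with both. Of 11 monocyte and macrophage markers tested, 0 passed with PM, 6 rose with OVA and 7 with both (6 without OVA/PM replicate 3), and their mean was 8.40 to 8.94 in PBS/PBS, 9.92 to 10.75 in OVA/PBS, 8.75 to 9.26 in PBS/PM and 9.96 to 10.63 in OVA/PM. Goblet cell and mucus genes rose in 3 of 11 tested with PM, 7 of 10 with OVA and 12 of 12 with both (also without OVA/PM replicate 3). Among those tested, 3, 2 and 4 had PBS/PBS or the exposed group under the filter on all its arrays. Of these, 2, 2 and 4 were called. Means of the goblet cell and mucus genes were 5.02 to 5.17 in PBS/PBS, 6.63 to 7.39 in OVA/PBS, 7.60 to 8.18 in PBS/PM and 9.20 to 9.28 in OVA/PM. The part of either cell type in the level of Retnla was not tested.

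Of 8 eosinophil markers matched, at most 2 were tested in any comparison, and the defining genes Prg2, Epx and Ccr3 were under the filter on all 12 arrays. The ribonuclease gene Rnase2a was under the filter in PBS/PBS, at 2.72 to 2.78, and in OVA/PBS, at 2.99 to 3.29. It was tested against PBS/PBS only through the groups where it was high, 7.98 to 10.49 with PM (limma, adjusted p = 0.0404) and 9.77 to 10.25 with both (adjusted p = 4.23e-06). The other marker tested, Siglecf, averaged 8.52 in PBS/PBS, 8.78 in OVA/PBS, 8.62 in PBS/PM and 8.97 in OVA/PM, and was called in no comparison with PBS/PBS. Neutrophil markers, given because Retnlg is known from granulocytes, had means of 6.78 to 8.70 in PBS/PBS, 7.40 to 9.23 in OVA/PBS, 6.51 to 6.97 in PBS/PM and 7.89 to 9.03 in OVA/PM, with 0 of 9 called with PM, 3 of 10 higher with OVA and 6 of 11 higher with both (3 without OVA/PM replicate 3). Of 13 lung structural genes tested, 0 passed with PM, 1 rose and 2 fell with OVA, and 2 rose and 5 fell with both (0 and 2 without OVA/PM replicate 3).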

How the data were processed

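The authors deposited log2 intensities of 45101 probe sets, made with GCRMA (background correction by probe composition, quantile normalization, median polish). The submitters' processing notes also name MAS5, without versions. All 12 columns carried a sample's name (0 columns of no sample), and 0 of 66 pairs of columns were identical.

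Comparisons used limma 3.58.1 in R 4.3.3 with Benjamini-Hochberg adjustment over the probe sets kept, which reached 4.93 (the median of all values) on all 3 arrays of at least 1 group compared. This filter stands in for the methods' detection calls, and limma for their SAM test, which was not run. The 64 control probe sets were left out. The interaction came from a fit of all 12 arrays. Results called had an adjusted p below 0.05. Folds are ratios of linear group means. Correlations used permutation tests with 100000 resamples in scipy 1.17.1. The fits were tested on simulated data.

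Symbols came from the platform annotation (34958 probe sets with 1 symbol, 932 with several, 9211 with none), and a look-up in a GRCm38.p6 gene table changed 0 of 34754. Family members and gene lists were chosen with earlier results of these data known. Named genes are the members, for each the 8 probe sets of most similar level and the leading ones by deviation, probe sets with a called interaction, and list members. The RNA of a gene list was read by the probe set of highest mean. Several Ear, Ly6 and Stfa genes of the lists had no probe set with 1 symbol. Whether RNA of Retnlg binds to the probes of Retnla was not tested.

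Other settings run were the fit without any filter, the 75th percentile (8.65) in place of the median, 16 added on the linear scale, further quantile normalization, a replicate block, a fit of all 4 groups, leaving out each array, exchanged names, and the probe set with the lowest p in the lists. Leaving out OVA/PM replicate 3 was also run for the list counts, a choice made after seeing the data.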

Additional observations from a re-analysis of the deposited data

Results flagged for a closer look

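The effect of PM on Retnla differed between OVA-challenged and naive lungs by -3.33 on the log2 scale (SE 0.21, limma, adjusted p = 0.00018), a tested difference between groups. In naive lungs PM raised Retnla by 4.01, with all 3 PBS/PM arrays above all 3 PBS/PBS arrays, and in OVA-challenged lungs it differed by 0.69, which was not called. The OVA/PBS lungs already stood at 13.67 to 14.34. The value is the same if the names OVA and PM are exchanged.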

How the results depend on the processing

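Retnla kept its direction and its call against PBS/PBS, and in the interaction, under every alternative run. Leaving out 1 array at a time gave 3.93 to 4.08 for PM, 3.57 to 3.90 for OVA, 4.37 to 4.48 for both and -3.51 to -3.17 for the interaction. For OVA against PM it gave -0.45 to -0.11 and for both against OVA 0.51 to 0.84, not called. For both against PM it gave 0.35 to 0.48, with the call gained without PBS/PM replicate 3 (0.48, adjusted p = 0.049), and that difference, 0.40, also passed with the filter at the 75th percentile (adjusted p = 0.0245) and with an offset of 16 (adjusted p = 0.0453), both in limma. The synergistic index of Retnla was 0.57 on the log2 scale and 0.69 to 0.77 with 1 array left out. With the names OVA and PM exchanged, OVA against PM turned to 0.29 for Retnla and 0.05 for Retn, and the single-exposure values changed places.

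Retn was less stable. Leaving out 1 array gave -0.22 to 0.00 for PM (0.00 without PBS/PBS replicate 3), -0.37 to 0.19 for OVA (0.19 without OVA/PBS replicate 1), -0.59 to -0.37 for both (-0.59 without PBS/PBS replicate 1, limma adjusted p = 0.0413, the only one called), -0.66 to -0.10 for both against OVA and -0.27 to 0.28 for OVA against PM (0.28 without OVA/PBS replicate 1). Its interaction was -0.56 without that array and -0.01 without OVA/PBS replicate 3, not called in either.

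Replicate numbers did not pair the arrays: 3 of 18 pairs of the same number had deviations correlated over 0.1, with a median of -0.06. With the replicate block the limma adjusted p of Retnla was 0.017 for PM, 0.0438 for OVA, 0.000603 for both and 0.00281 for the interaction, and no call of a member changed.

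Counts of all probe sets called moved more. For PM the count of 16 became 6 without a filter, 4 with the block, 38 in the fit of 4 groups and 3 to 11 with 1 array left out. For OVA, 4326 became 2432, 89 with the block and 407 to 5284. For both against OVA, 29 became 10 without a filter and 9 to 63, and for both against PM, 2894 became 1377 with the block and 1367 to 1870. For both against PBS/PBS, 4899 became 2188 to 4491. For OVA against PM, 1165 became 4 without a filter, 1935 at the 75th percentile, 711 with the block, 3300 in the fit of 4 groups and 4 to 3587. The interaction count of 6 became 3 at the 75th percentile and 4 to 11. Exchanging the names gave 4326 for PM, 16 for OVA, 2894 for both against OVA and 29 for both against PM. In the lists, the type 2 cytokine count with OVA was 2 in place of 1 with the probe set of lowest p. Leaving OVA/PM replicate 3 out of the list counts was chosen after seeing the data. The cause of these changes was not tested. Signal over background limits Retnlb, which lay under the filter on every array.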
